A study of Rattus norvegicus with 21 samples.

Results

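The cytosolic ribosomal protein genes are the 65 genes on the array whose platform symbol is Rpl or Rps with a number (and at most a short suffix), or is Rplp0, Rplp1, Rplp2 or Rpsa, kinases of Rps6 left out. They are 65 of 19339 features tested, an array feature being a named gene by its brightest probe or a probe with no gene name. By symbol, 35 are core proteins of the large subunit, 23 are core proteins of the small subunit, 3 form the stalk of the large subunit (Rplp0, Rplp1 and Rplp2), and 4 carry a paralog-style symbol (Rpl3l, Rpl7l1, Rpl22l1 and Rpl37l1). All 65 passed the filter on dim probes, and the rule that picks them uses the symbol alone. Probe level did differ: 52 members averaged a log2 intensity of 9 or more, and 13 averaged less, of which 4 (Rpl11, Rpl12, Rpl36a and Rps19) had no group mean above 6.38, which is the middle of all normalized log2 values and serves here as the limit of background.

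Ribosomal proteins coat and stabilise the ribosomal RNA of the large and small subunits, and a growing cell makes them in equal proportion. Most of their mRNAs start with a run of pyrimidines at the cap, the terminal oligopyrimidine (TOP) tract, which lets the kinase complex mTORC1, acting in part through the RNA-binding protein LARP1, set how strongly they are translated. Every cell of the liver makes these mRNAs, and a liver that regrows or secretes much protein depends on them.

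Illumina bead arrays were run on total RNA of non-tumour liver, with 21 arrays in all and 3 per group, from male rats of the Wistar strain. The week 12 rats, as labelled, had received weekly intraperitoneal injections of phosphate-buffered saline (PBS), of diethylnitrosamine at 50 mg/kg (DEN 50) or of diethylnitrosamine at 100 mg/kg (DEN 100). Diethylnitrosamine (DEN) is a carcinogen that hepatocytes activate by cytochrome P450 and that, given repeatedly, scars the liver. The week 18 rats on DEN 50 had also been injected 5 times a week, from week 13 to week 18, with vehicle or with erlotinib, whose dose was 0.5 mg/kg (erlotinib 0.5) or 2 mg/kg (erlotinib 2), and PBS rats of that time had received neither vehicle nor drug by their labels. Erlotinib blocks the kinase activity of the EGF receptor. DEN livers are given as cirrhotic in the labels, which also state killing times of 9, 13 and 19 weeks after a washout of 1 week. The erlotinib doses come from separate studies whose vehicle rats were pooled, with no study named for a rat, so dose and study cannot be told apart. The number in a label was read as a rat, and nothing else says that arrays came from separate animals, so p-values measure only the spread between these samples.

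To show what these genes share at their start, 30-base windows around the RefSeq transcription start (10 bases before it and 20 from it on, assembly GRCr8) were read for the members that the results turn on. Each is printed 5′ to 3′ on the strand of its gene, and capitals mark the longest run of C and T where it is 8 bases or more. The first group rose most in DEN livers or fell with erlotinib and holds such a run. Rps3 and Rpsa are among the members that rose most and hold none in this window. Rps24 and Rpl3l fell in DEN livers, and Rpl22 and Rpl22l1 are a core gene and its paralog.
Rpl13, chr19:68062504-68062533, plus strand: cggtgcccgaTCCTTTCCgctcggccgttc
Rps14, chr18:56498250-56498279, plus strand: ccgTCTCTCTCTTTCCggtggaggagtctg
Rplp1, chr8:71290853-71290882, minus strand: cgcatgtgaTCCTTTCCTCagctgccgcca
Rpl9, chr14:43247580-43247609, plus strand: aggacgTTCTCTCTTTgccccatctactgc
Rps23, chr2:23814507-23814536, plus strand: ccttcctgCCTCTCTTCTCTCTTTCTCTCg
Rps3, chr1:163195757-163195786, minus strand: ttcagcggcgcgcggcagcaagatggcggt
Rpsa, chr8:128728869-128728898, plus strand: ccgcgctaccctggaacgggtccgtacggc
Rps24, chr16:96507-96536, plus strand: ggTCCTCTTTTCCTCCTTTacagctcgggc
Rpl3l, chr10:14258436-14258465, plus strand: ctggtgcctggtggggaggTCCCTTCCTaa
Rpl22, chr5:168117951-168117980, plus strand: gcgCCCCCCTCCCTTTCTgcctcctctgcc
Rpl22l1, chr2:113683186-113683215, plus strand: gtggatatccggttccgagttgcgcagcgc

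The RefSeq promoter table held 54 of the 65 members. Of these, 32 (59.3%) had a run of at least 8 pyrimidines in the window, against 10.8% of all 33469 promoters of the table. Across the whole 300-base promoter, both strands searched, CCGGAAG, a core that factors of the ETS family can bind, was found in 17 members (31.5%) and in 8.75% of all promoters. The letters AAGATGGC, a core that the factor YY1 can bind, were found in 5 members (9.26%) and in 3.17% of all promoters, and TATAAA in 5 members (9.26%) and in 14.2% of all promoters. These matches describe letters in a window and were not tested as binding sites. RefSeq starts were not checked, and a run was counted anywhere in the window, in Rpl3l downstream of the start. A window with or without a run therefore does not show whether an mRNA has a TOP tract.

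The median ribosomal protein gene stood among the brightest probes of every array, and this median was higher on each array of a DEN group than on the PBS arrays. Their median level was 12.28 to 12.47 on a log2 scale of intensity in PBS livers at week 12, 12.67 to 12.93 in DEN 50 livers and 13.29 to 13.67 in DEN 100 livers. At week 18 it was 13.21 to 13.32 in DEN 50 livers with vehicle, 12.81 to 12.96 with erlotinib 0.5, 12.76 to 12.82 with erlotinib 2, and 12.38 to 12.50 in PBS livers. No array of a DEN group overlapped the PBS arrays of its week, and no array of an erlotinib group overlapped the vehicle arrays. Within each week the order of the groups was the same for the share of raw signal, which scales each array to its own sum and so moves with other bright genes too. At week 12 the 65 genes took 3.06 to 3.23% of the summed signal of an array in PBS livers, 4.20 to 4.34% in DEN 50 livers and 4.86 to 7.15% in DEN 100 livers. At week 18 they took 4.94 to 5.88% with vehicle, 4.51 to 4.74% with erlotinib 0.5, 3.87 to 4.25% with erlotinib 2 and 3.01 to 3.11% in PBS livers. Among the 100 brightest probes of an array, ribosomal protein genes held 16 to 23 places in DEN 100 livers and 3 in each PBS liver of week 12. With vehicle at week 18 they held 12 to 16 places, with erlotinib 2 they held 5 to 9, and in PBS livers of that week 3 on each array.

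**Figure D1:**
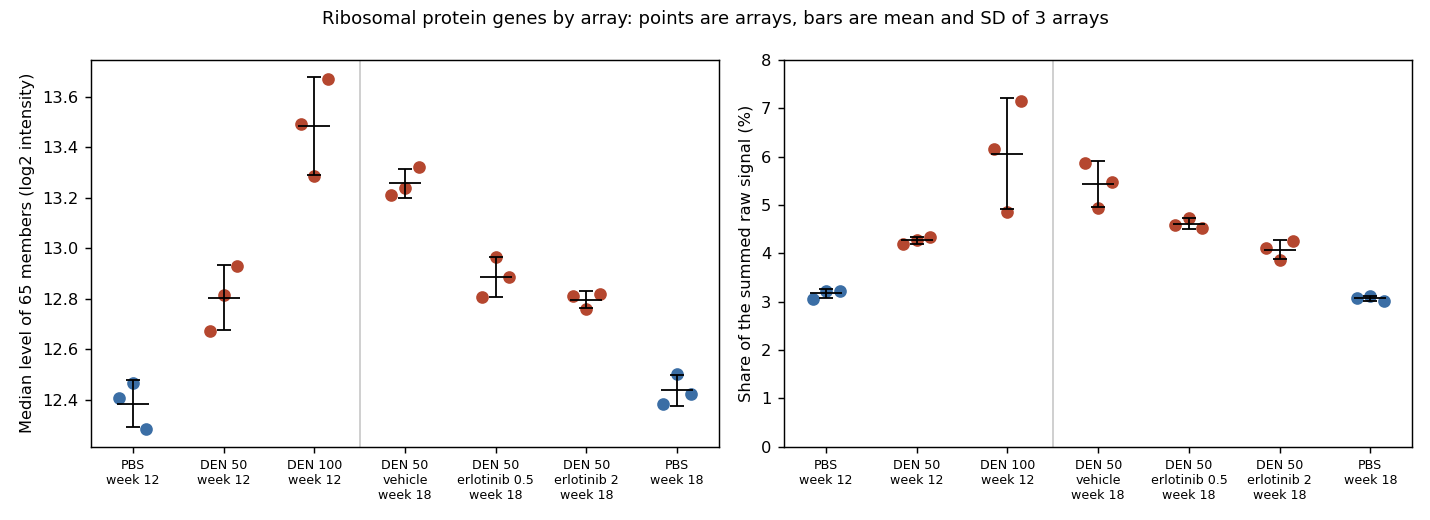
Left, the median log2 intensity of the 65 ribosomal protein genes on each of 21 arrays, and right, their share in percent of the summed raw signal, by group. Points are arrays and black bars the mean and SD of 3 arrays, with the week 12 groups left of the grey line. DEN 100 arrays lie highest, at 13.29 to 13.67 on the left, and all PBS arrays lie lowest, at 12.28 to 12.50.

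In bulk liver, fewer cells of a type and less RNA per cell cannot be told apart, and markers of other cell types moved with these groups. Hepatocyte genes fitted the tissue label: the 9 measured of 10 listed averaged log2 levels of 13.46 to 14.95 over all arrays of the series. Between DEN 100 and PBS, 1 hepatocyte marker rose and 3 fell, all 6 measured cholangiocyte markers rose, 5 of 7 markers of stellate cells and myofibroblasts rose, 4 of 6 markers of dividing cells rose, and 4 of 6 macrophage markers rose while 1 fell. Of all features 11.5% rose and 9.81% fell in that comparison. The mean log2 level of the cholangiocyte list at week 12 was 7.39 to 7.96 in PBS livers, 8.89 to 9.68 in DEN 50 livers and 9.77 to 10.9 in DEN 100 livers, Krt7 standing at background in PBS and DEN 50 livers. At week 18 it was 9.23 to 10.2 with vehicle, 9.27 to 9.73 with erlotinib 0.5, 8.55 to 8.98 with erlotinib 2 and 7.61 to 7.74 in PBS livers, Krt7 standing at background except with vehicle and Spp1 also in PBS livers. The stellate list was at 9.85 to 9.93 with vehicle, 9.49 to 9.95 with erlotinib 0.5, 8.63 to 8.81 with erlotinib 2 and 7.68 to 7.76 in PBS livers of week 18. The part of these cell types in the change of ribosomal protein genes was not tested.

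With DEN 50 at week 12, 25 of the 65 members rose and none fell at a Benjamini-Hochberg adjusted p under 0.05 over all features (limma), where 5.77% of all features rose and 5.13% fell. The median member changed by 0.39 on the log2 scale, against -0.02 for all features. On 45 members every DEN 50 array lay above every PBS array, and on 2 every DEN 50 array lay below, where 13% and 13.2% of all features did so. Of the 35 core proteins of the large subunit 12 rose, of the 23 of the small subunit 10, of the 3 stalk proteins 2, and of the 4 paralog symbols 1. The count of 25 became 4 by cyclic loess and 1 by bright-probe scaling, where the median was 0.08. Over all features the count of 2108 became 1951 and 1312. All 25 that rose were among the 52 members with a mean level of 9 or more. In the same comparison 5 of 6 cholangiocyte and 4 of 7 stellate markers rose and 2 of 9 hepatocyte markers fell, and their part in the result was not tested.

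Rpsa, a small-subunit protein that is also known as a laminin receptor, led this comparison. It measured 14.27, 14.34 and 14.30 on the DEN 50 arrays, against 13.29, 13.50 and 13.63 on the PBS arrays, a change of 0.83 ± 0.14 (SE, n = 3 each; limma adjusted p = 0.000254). Here and below the SE is that of limma, from a spread estimated over all 7 groups and not from the compared arrays alone. Rpl13, a protein of the large subunit, measured 11.24, 11.48 and 11.45 on the DEN 50 arrays, against 10.54, 10.61 and 10.56 on the PBS arrays (0.82 ± 0.12; adjusted p = 8.99e-05). The DEN 50 arrays of both genes lay clear of the PBS arrays. Rplp0, the protein at the base of the stalk that recruits translation factors, rose by 0.73 ± 0.11 (adjusted p = 7.16e-05). Rps3, a protein at the mRNA entry of the small subunit that also takes part in DNA repair, measured 12.78, 12.70 and 12.83 with DEN 50, against 11.99, 11.98 and 11.92 with PBS (0.81 ± 0.15; adjusted p = 0.000884). Rps18, often used as a reference gene, rose by 0.76 ± 0.17 (adjusted p = 0.0037). Of these genes Rpl13 alone kept its call by bright-probe scaling, and Rplp0 and Rps18 also lost theirs by cyclic loess. At the other end stood Rpl10, which joins the large subunit late in its assembly. It measured 12.59, 13.13 and 13.19 with DEN 50, against 13.34, 13.23 and 13.28 with PBS, and its change of -0.31 ± 0.17 missed the threshold (adjusted p = 0.298).

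With DEN 100 at week 12, 52 members rose and 2 fell, where 11.5% of all features rose and 9.81% fell. The median member changed by 0.97, a fold of 1.95, against -0.01 for all features, and 55 members lay above and 3 below PBS with no overlap of arrays, where 15.9% and 14.8% of all features did so. In the large subunit 28 of 35 core members rose, in the small subunit 19 of 23 rose and 1 fell, in the stalk 2 of 3 rose, and of the paralog symbols 3 rose and 1 fell. Of the 52 brighter members 49 rose and none fell, with a median of 1.02, and of the 13 dimmer members 3 rose and 2 fell, with a median of 0.16. Dim probes lie closer to background, and 6 of these 13 had a group mean at or below its limit of 6.38. Whether the mRNAs of dim and bright members changed unequally was not tested.

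Rps3 rose most. It measured 13.97, 13.28 and 14.08 on the DEN 100 arrays, against 11.99, 11.98 and 11.92 on the PBS arrays, a fold of 3.51 (1.81 ± 0.15, limma adjusted p = 7.42e-09). Its SD was 0.44 on the DEN 100 arrays and 0.035 on the PBS arrays, which an SE over all 7 groups does not show. Rps14, which lies at the platform of the small subunit, measured 14.85, 14.34 and 15.05 with DEN 100, against 13.31, 13.39 and 13.40 with PBS (1.38 ± 0.15; adjusted p = 3.81e-07). Of the DEN 100 arrays, both genes stood lowest on DEN_112 and highest on DEN_113. Rps12 rose by 1.44 ± 0.17, with 12.05, 11.83 and 12.70 on the DEN 100 arrays and 10.81, 10.63 and 10.83 on the PBS arrays. Rpl13 rose by 1.37 ± 0.12, Rpsa by 1.31 ± 0.14 and Rpl17, which lines the exit of the nascent peptide, by 1.30 ± 0.17. In the stalk, Rplp1 rose by 1.25 ± 0.14 and Rplp0 by 0.86 ± 0.11 (adjusted p = 3.5e-07 and 1.8e-06), and Rplp2, dim on every array at 6.11 to 6.56, changed by -0.17 ± 0.12 (adjusted p = 0.355). The call of Rplp0 did not hold under all 6 scalings described below.

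Rps24 and Rpl3l fell. Rps24, a small-subunit protein whose human gene is among those mutated in Diamond-Blackfan anaemia, measured 7.49, 7.31 and 7.64 with DEN 100, against 8.21, 7.99 and 8.07 with PBS (-0.61 ± 0.13, limma adjusted p = 0.00141). Rpl3l, a paralog of Rpl3 that in mice is made in heart and skeletal muscle, measured 7.07, 7.02 and 7.26 with DEN 100, against 7.59, 7.33 and 7.49 with PBS (-0.35 ± 0.11; adjusted p = 0.0285). All DEN 100 arrays of both genes lay below all PBS arrays. Rpl3 itself, which helps to form the peptidyl transferase centre, rose by 0.62 ± 0.11 (adjusted p = 0.000197). Both Rps24 and Rpl3l are among the dim members, at mean levels of 7.92 and 7.28, where the near-background limit was 6.38. Of Rps24, Rpl3l and Rpl3, none kept its call under all 6 scalings described below. The call of Rpl3l was also lost without PBS_7, PBS_110, DEN_111 or DEN_112 (adjusted p = 0.129, 0.0734, 0.0899 and 0.109).

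**Figure D2:**
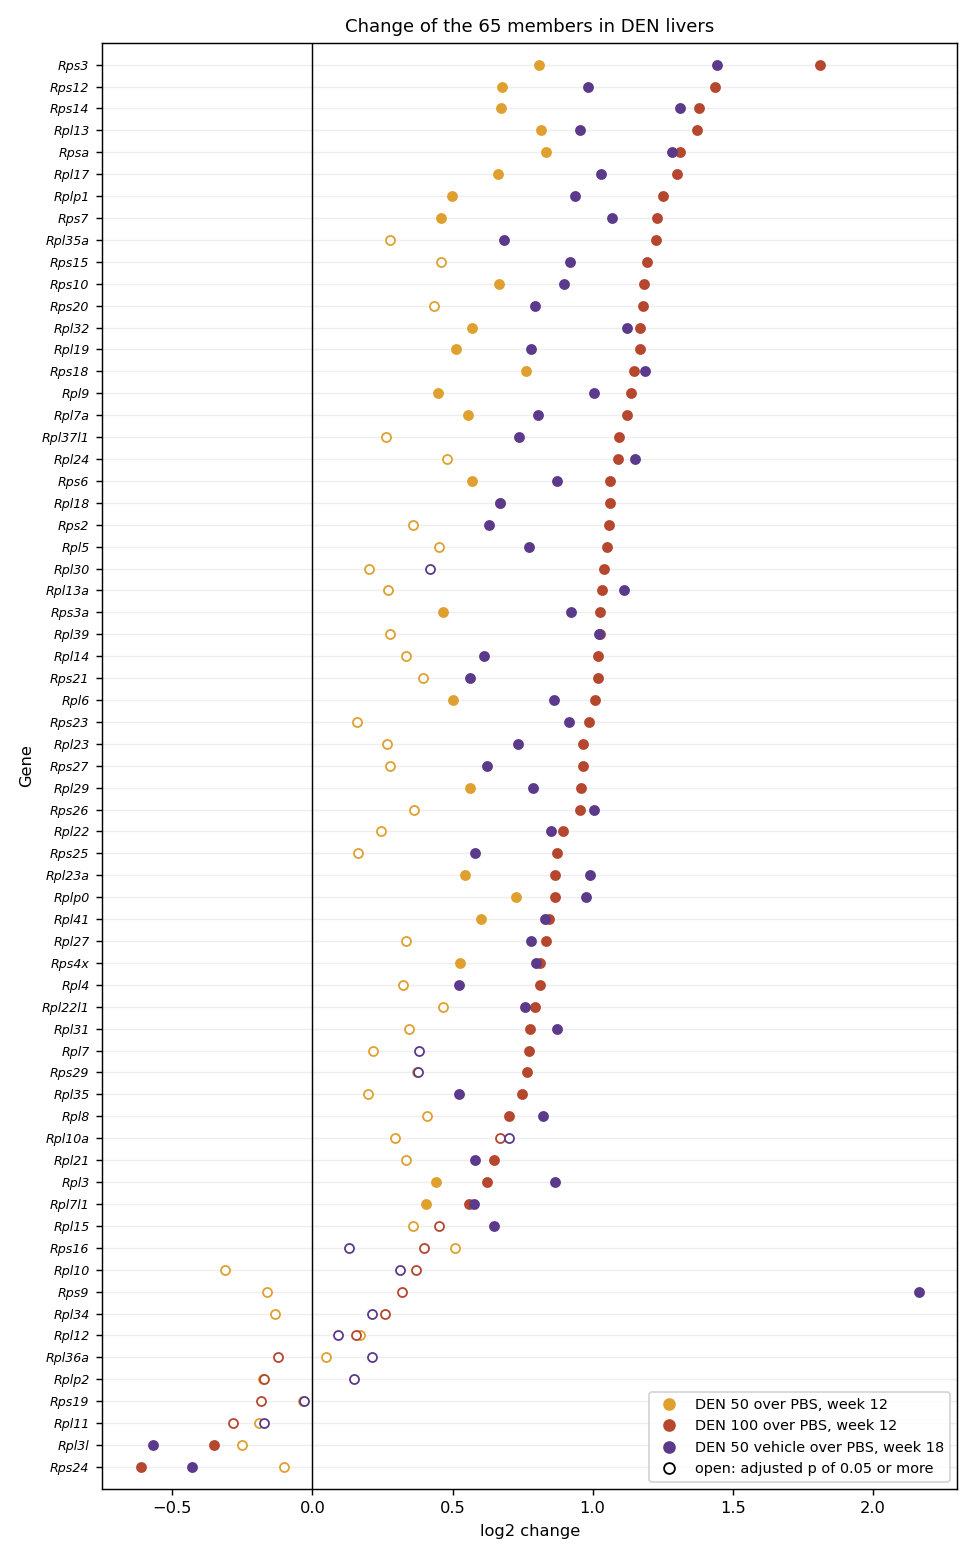
The log2 change of each of the 65 members with DEN 50 and DEN 100 over PBS at week 12 and with DEN 50 and vehicle over PBS at week 18, sorted by the DEN 100 change. Filled points passed an adjusted p under 0.05 (limma). Rps3 leads with DEN 100 at 1.81, Rps24 is last at -0.61, and Rps9 stands alone at 2.16 with vehicle at week 18.

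Between the doses at week 12, 39 members were higher with DEN 100 than with DEN 50 and 1 was lower, where 5.07% and 4.31% of all features were. The median member differed by 0.55, and 43 members lay higher and 2 lower with no overlap, against 11.4% and 10.5% of all features. Rps3 differed most, by 1.003 ± 0.15 (limma adjusted p = 0.000111), then Rpl35a by 0.95 ± 0.16, Rpl30 by 0.84 ± 0.20 and Rpl37l1 by 0.83 ± 0.13. The call of Rpl30 was lost without DEN 50 array 11 or DEN_113 (adjusted p = 0.074 and 0.0554). Rpl35a measured 13.05, 12.44 and 13.44 with DEN 100, against 12.06, 11.98 and 12.02 with DEN 50. Rplp0, which already stood high with DEN 50, differed by 0.14 ± 0.11 (adjusted p = 0.571), and its raw signal reached 98.9% of the brightest probe of an array. Rpl41 and Rpl23a also passed 90% of the brightest probe, and whether the top of the scale limits these 3 probes was not tested. Rps24 was lower with DEN 100, with a difference of -0.51 ± 0.13 (adjusted p = 0.0154), and its call was lost without DEN 50 array 11 or 14 or without DEN_112 (adjusted p = 0.0621, 0.0758 and 0.0779). The DEN 100 arrays spread more than others: the median SD of a member was 0.27 in that group and 0.12 with DEN 50, where all features had 0.16 and 0.14. The count of 40 members called in either direction became 22 without DEN_113, 10 when the DEN 100 and DEN 50 arrays were fitted alone, 5 by bright-probe scaling and 1 by median scaling, where the median difference was 0.21. Over all features 1814 were called by quantile, 945 by bright-probe scaling and 676 by median scaling.

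At week 18, DEN 50 livers with vehicle were compared with PBS livers, so that DEN and vehicle injections were both part of the difference. Here 51 members rose and 2 fell, where 9.51% of all features rose and 8.73% fell, and the median member changed by 0.79, a fold of 1.73, against -0.03 for all features. Here 5 of 6 cholangiocyte and 6 of 7 stellate markers rose and 4 of 9 hepatocyte markers fell as well, and their part in the result was not tested. On 55 members every vehicle array lay above every PBS array and on 2 below, against 14.9% and 16% of all features. In the large subunit 27 of 35 rose, in the small subunit 19 of 23 rose and 1 fell, in the stalk 2 of 3 rose, and of the paralog symbols 3 rose and 1 fell. Rps3 measured 13.56, 13.34 and 13.34 with vehicle, against 11.90, 11.92 and 12.10 with PBS (1.44 ± 0.15, limma adjusted p = 4.77e-07). Rps14 measured 14.80, 14.36 and 14.56 with vehicle, against 13.27, 13.34 and 13.18 with PBS (1.31 ± 0.15; adjusted p = 1.65e-06). Rpsa rose by 1.28 ± 0.14, Rps18 by 1.19 ± 0.17, Rpl24, a protein of the bridge between the subunits, by 1.15 ± 0.19, and Rpl32 by 1.12 ± 0.11. Each of these genes had all vehicle arrays above all PBS arrays. Rpl3l fell, with 7.32, 6.96 and 6.97 against 7.60, 7.71 and 7.65 in PBS livers (-0.57 ± 0.11; adjusted p = 0.000835), and so did Rps24, with 7.86, 7.92 and 7.73 against 8.17, 8.39 and 8.24 (-0.43 ± 0.13; adjusted p = 0.0263). Rps24 was not called by median scaling, bright-probe scaling or cyclic loess, with a trended spread, or without vehicle array 24 or 69 or PBS array 9 or 18 (adjusted p = 0.0506, 0.109, 0.111 and 0.0546 without those arrays). Rpl3l was not called by median scaling (adjusted p = 0.421).

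Rps9, a small-subunit protein used as a reference gene, had the largest fitted change of that comparison and has to be read array by array. Its brighter probe measured 12.91, 10.81 and 12.98 with vehicle, against 9.97, 10.11 and 10.13 in PBS livers (2.16 ± 0.66, limma adjusted p = 0.0239), and this call was lost without any 1 of the 6 arrays other than vehicle array 59 (adjusted p = 0.0579 to 0.118). Its other probe measured 12.42, 8.24 and 12.37 with vehicle, against 8.79, 8.68 and 9.02 in PBS livers, so that the groups overlapped, and it missed the threshold (2.18 ± 1.26; adjusted p over all probes = 0.307). Over the series this second probe stood either at 9.02 and below or at 11.28 and above, with no array between, and the brighter probe was split in the same way, at 11.52 and below or at 12.05 and above. The 8 high arrays were 2 of 3 in PBS livers of week 12, 1 with DEN 50, 1 with DEN 100, 2 with vehicle, 1 with erlotinib 0.5, 1 with erlotinib 2 and none in PBS livers of week 18. Rps9 also had the largest SD within groups of all members, 0.98 over the 7 groups, where the median member had 0.16. The cause of the split was not tested, and the values of Rps9 are not read as an effect of DEN or erlotinib. Rps9 remains in all counts of members. With vehicle over PBS these include the 51 that rose, the 19 of the small subunit and the 55 with no overlap.

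Between PBS livers of week 18 and of week 12 no member passed the threshold in limma, 1 had an unadjusted p under 0.05, 0 passed under each alternative, and of all features 0% were called. The median member differed by -0.03, with arrays apart on 4 members that were higher and 5 that were lower, against 6.97% and 6.54% of all features. Between DEN 50 livers with vehicle at week 18 and DEN 50 livers at week 12, 59 members were higher and the median was 0.35, and every week 18 array lay above every week 12 array on 40 members, against 8.37% of all features. Of these only Rpl9 passed the threshold (0.58 ± 0.12, limma adjusted p = 0.0333), where 0.15% of all features rose and 0.543% were called in either direction. At an unadjusted p under 0.05 stood 40 members, or 61.5%, and 11.5% of all features. The call of Rpl9 did not last without DEN 50 array 11, 14 or 51 or without vehicle array 24 or 69. The count became 2, 4 and 8 without DEN_111, DEN_112 or DEN_113, which take part through the shared estimate of spread alone. The interaction of DEN 50 and week compared the DEN 50 change over PBS at both time points, but vehicle was given to the DEN 50 rats of week 18 alone, so vehicle and time cannot be told apart in it or in the comparison of DEN 50 livers over time. No member passed it in limma, 24 had an unadjusted p under 0.05, all of them with the larger change at week 18. At the adjusted threshold 0.233% of all features were called and 0.0517% had a larger change at week 18. At an unadjusted p under 0.05 stood 36.9% of the members and 12.7% of all features. The count was 1 without DEN_113 and 0 under each other alternative, and the median interaction was 0.34.

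**Figure D3:**
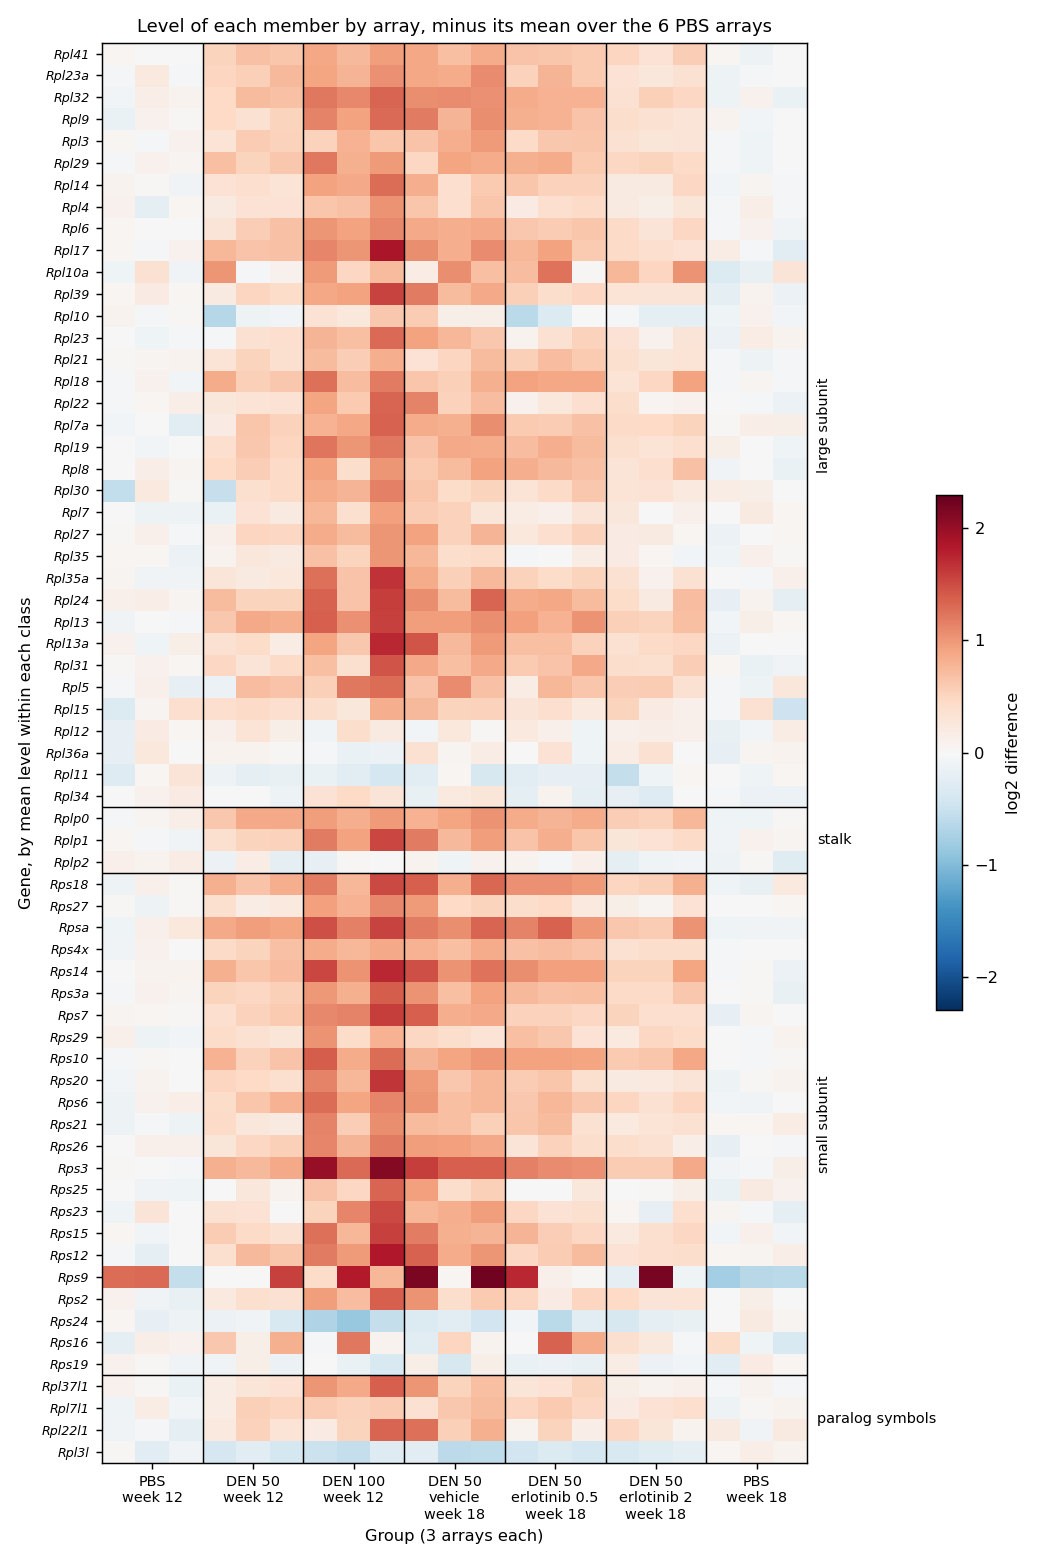
The level of each of the 65 members on each of 21 arrays, as a log2 difference from its mean over the 6 PBS arrays, genes down the page by class and mean level and arrays across by group. Most rows are red in the DEN groups and deepest on the DEN 100 and vehicle arrays. Rps24 and Rpl3l are blue on the DEN 100 and vehicle arrays, Rpl12 stays pale, and Rps9 changes from array to array within groups.

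With erlotinib 2, 23 members fell and none rose against vehicle, where 2.11% of all features fell and 1.92% rose, 4.03% in all. The median member changed by -0.43, a fold of 0.741, against 0.00 for all features, and every erlotinib 2 array lay below every vehicle array on 45 members and above on none, against 10.5% and 9.4% of all features. Of the large subunit 11 of 35 core members fell, of the small subunit 10 of 23, of the stalk 1 of 3 and of the paralog symbols 1 of 4, and all 23 were among the brighter members. Rps3 measured 12.56, 12.54 and 12.83 with erlotinib 2, against 13.56, 13.34 and 13.34 with vehicle (-0.77 ± 0.15, limma adjusted p = 0.00458). Rps23, which sits at the decoding centre of the small subunit, measured 12.24, 12.01 and 12.58 with erlotinib 2, against 12.95, 13.03 and 13.16 with vehicle (-0.77 ± 0.19; adjusted p = 0.0223). Rpl9 measured 14.36, 14.30 and 14.24 with erlotinib 2, against 15.15, 14.74 and 15.03 with vehicle (-0.67 ± 0.12; adjusted p = 0.0023). The erlotinib 2 arrays of these 3 genes lay below all their vehicle arrays. Rps12 fell by 0.71 ± 0.17 on the log2 scale, and Rpl37l1, Rpl39, Rpl23a and Rps26 by 0.63 ± 0.13, 0.63 ± 0.15, 0.63 ± 0.11 and 0.62 ± 0.12. In the stalk Rplp1 fell by 0.62 ± 0.14 (adjusted p = 0.0107), while Rplp0 changed by -0.30 ± 0.11 and missed the threshold (adjusted p = 0.137). Rpsa, Rps18, Rps6 and Rpl13 missed it as well, at -0.46 ± 0.14, -0.55 ± 0.17, -0.38 ± 0.12 and -0.42 ± 0.12 (adjusted p = 0.0671, 0.0685, 0.0957 and 0.0582).

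The count of 23 rested on single arrays and on the scaling. It was 8 without erlotinib 2 array 29, 14 without array 27, 11 without vehicle array 24 and 11 without vehicle array 69, and it ranged up to 33 without DEN_113. With each array of the 2 groups left out in turn, the median member change stayed between -0.47 and -0.38. Of the genes named above, Rps3, Rpl9, Rpl37l1, Rpl23a and Rps26 kept their call without each of the 6 arrays of both groups. The call of Rps23 was lost without vehicle array 59 or 69 or erlotinib 2 array 27 or 29, that of Rps12 without vehicle array 24 or erlotinib 2 array 27 or 29, that of Rpl39 without vehicle array 24 or any erlotinib 2 array, and that of Rplp1 without vehicle array 24 or erlotinib 2 array 29 (adjusted p = 0.0513 to 0.152 in these). Markers of other cells moved in the same comparison: 3 of 6 cholangiocyte markers and 6 of 7 stellate markers fell, 2 of 9 hepatocyte markers rose, and no marker of dividing cells was called. Of all features 1.92% rose and 2.11% fell. The part of these markers in the result was not tested.

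With erlotinib 0.5, no member passed the threshold against vehicle in limma, where 0.14% of all features did, 0.103% higher and 0.0362% lower. The median member changed by -0.23, 22 members (33.8%, against 11.2% of all features) had an unadjusted p under 0.05, all of them lower, and the adjusted count was 1 with array weights and 0 under each other alternative. Every erlotinib 0.5 array lay below every vehicle array on 22 members and above on 1 (Rpl18, named after its values were seen), against 8.15% and 8.41% of all features. Rps26 came nearest, with 12.75, 12.98 and 12.86 with erlotinib 0.5, against 13.41, 13.40 and 13.32 with vehicle (-0.52 ± 0.12; adjusted p = 0.0854). Between erlotinib 2 and erlotinib 0.5, again no member passed in limma, where 0.0776% of all features did, 0.0362% higher and 0.0414% lower. Of the members 19 (29.2%, against 8.01% of all features) had an unadjusted p under 0.05, all lower with erlotinib 2, and array weights gave 1 call. The median difference was -0.21, and arrays were apart on 35 members that were lower and 1 that was higher with erlotinib 2, against 8.46% and 7.4% of all features. Both comparisons with vehicle share the vehicle arrays, so their changes are given side by side and not as independent evidence.

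**Figure D4:**
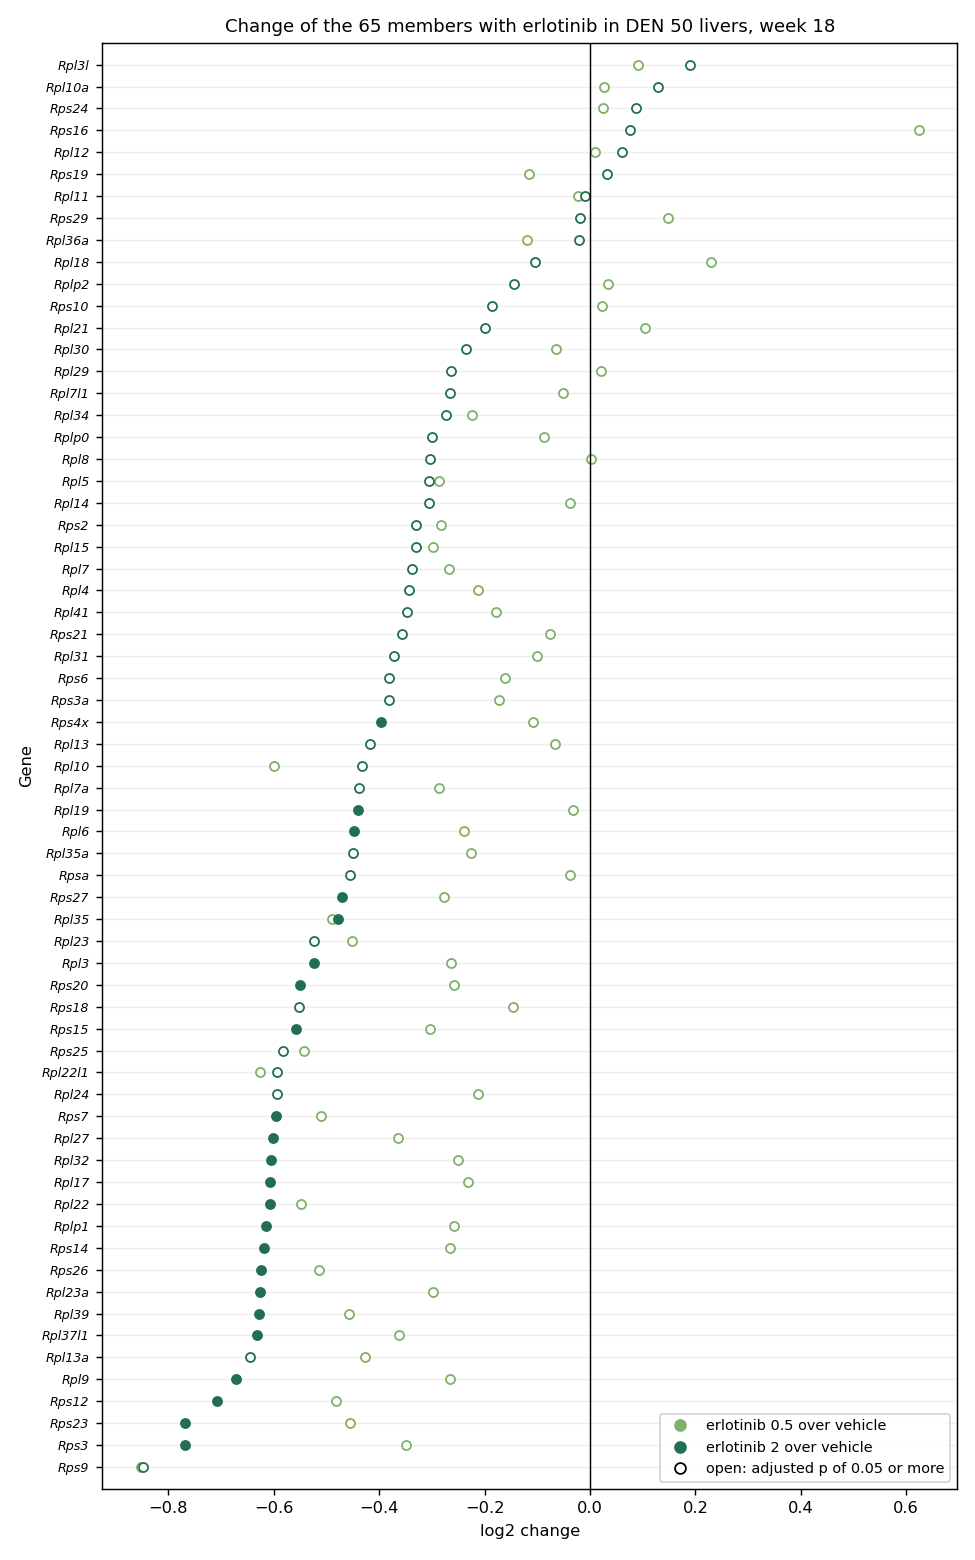
The log2 change of each of the 65 members with erlotinib 0.5 and with erlotinib 2 over vehicle in DEN 50 livers of week 18, sorted by the erlotinib 2 change. Filled points passed an adjusted p under 0.05 (limma), which 23 members did with erlotinib 2 and none with erlotinib 0.5. Rps3 and Rps23 lie at -0.77 with erlotinib 2, and Rps9, which missed the threshold, at -0.85.

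Small shifts shared by a bright gene family depend on what the arrays are scaled to, so each comparison was repeated on the deposited normalized table, without background correction, with cyclic loess, with each array shifted to a common median of all probes, and with each array shifted to a common median of the 6443 probes that were bright on all arrays. For DEN 100 over PBS the median member change was 0.97 by quantile, 0.90 in the deposited table, 0.81 by loess, 0.88 by median scaling and 0.66 by bright-probe scaling. The number of members that rose was 33 at the fewest, by bright-probe scaling, and 33 rose under all 6, with Rps3, Rps12, Rps14, Rpl13 and Rpsa among them. By bright-probe scaling 1201 of 19339 features rose. For DEN 50 over PBS the median ran from 0.63 by median scaling to 0.08 by bright-probe scaling, and Rpl13 was the sole member that rose under all 6. For vehicle over PBS it ran from 0.84 to 0.44, and the 10 genes that rose under all 6 were Rpl13, Rpl13a, Rpl24, Rpl31, Rplp1, Rps12, Rps14, Rps26, Rps3 and Rpsa. For erlotinib 2 over vehicle it ran from -0.43 by quantile to -0.28 by bright-probe scaling, with 23 members down by quantile, 4 by loess and 0 by median and by bright-probe scaling. For DEN 100 over DEN 50 it ran from 0.56 by loess to 0.21 by median scaling, and no member was called under all 6.

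The direction of the family median did not flip in these 5 comparisons, but its size relative to 0 was set by the scaling. With bright probes as the anchor, all features had a median of -0.50 for DEN 50 over PBS, -0.21 for DEN 100 over PBS, 0.30 for DEN 100 over DEN 50, -0.37 for vehicle over PBS and 0.06 for erlotinib 2 over vehicle. Both shift scalings add 1 constant per array, so the members' median relative to all features is the same in both by construction: 0.59 higher with DEN 50, 0.88 higher with DEN 100 and 0.81 higher with vehicle, against 0.41, 0.98 and 0.81 by quantile. With erlotinib 2 it lay at -0.35 relative to all features under both shift scalings and at -0.44 by quantile. For single genes, the change was positive under all 6 scalings for 44 members and negative under all 6 for 5 with DEN 50, 57 and 6 with DEN 100, and 54 and 4 with vehicle over PBS. It was negative under all 6 for 51 members and positive for 6 with erlotinib 0.5 over vehicle, and 55 and 4 with erlotinib 2. Since the shift scalings move every gene of an array alike, these counts partly restate the shift of the anchor. The share of called features that rose, over the whole array, also depended on it: for DEN 50 over PBS it was 89.7% by median scaling, 35.0% by bright-probe scaling and 52.9% by quantile. For vehicle over PBS it was 79.5%, 41.2% and 52.1% in that order, for DEN 100 over PBS 67.9%, 49.9% and 53.9%, for DEN 100 over DEN 50 20.0%, 51.7% and 54.1%, and for erlotinib 2 over vehicle 64.8%, 61.7% and 47.6%.

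**Figure D5:**
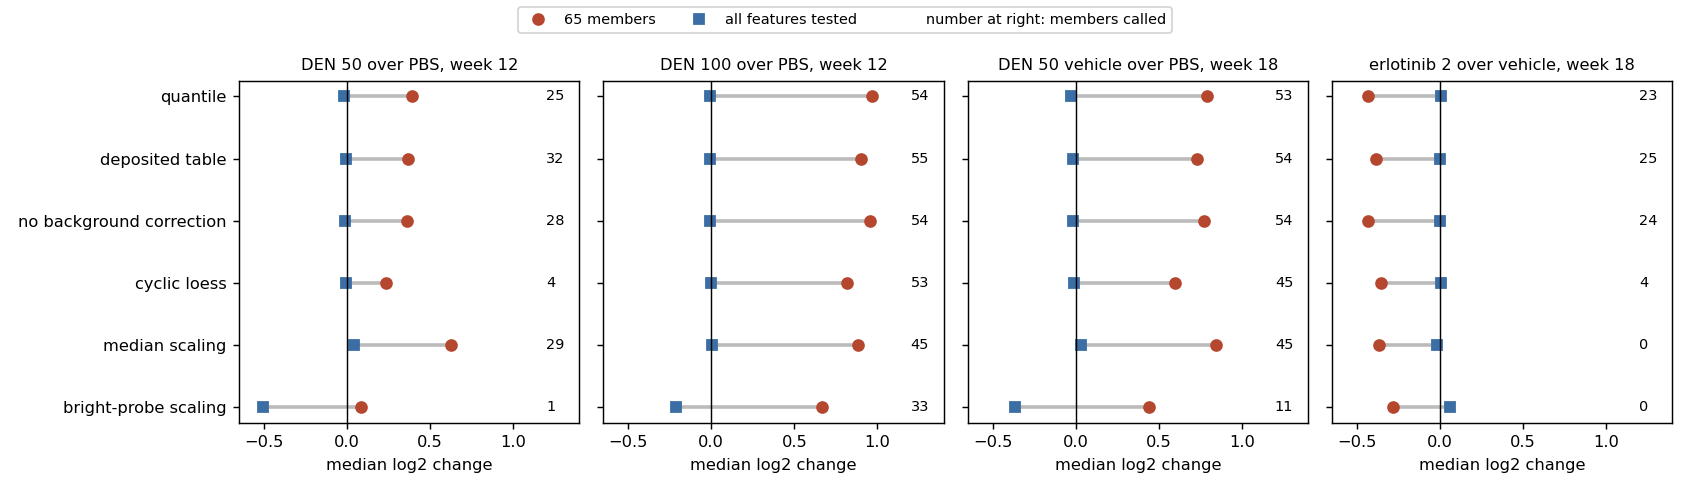
The median log2 change of the 65 members (circles) and of all features tested (squares) under 6 ways of scaling the arrays, with the number of members called at the right of each row, for 4 comparisons. With DEN 100 at least 33 members were called under every scaling. With erlotinib 2 the count was 23 by quantile and 0 by median and by bright-probe scaling. Over all features it was 780, 125 and 337 in that order.

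Rps6, the substrate of the S6 kinases, rose by 0.57 ± 0.12 with DEN 50, 1.06 ± 0.12 with DEN 100 and 0.87 ± 0.12 with vehicle over PBS (limma adjusted p = 0.00351, 8.79e-07 and 2.15e-05). Its call held under all 6 scalings with DEN 100, and was lost by bright-probe scaling with DEN 50 and with vehicle (adjusted p = 0.37 and 0.122) and by cyclic loess with DEN 50 (adjusted p = 0.173). Of the proteins that bind and restrain MDM2, the ubiquitin ligase of p53, Rpl23 rose by 0.97 ± 0.16 and Rpl5 by 1.05 ± 0.22 with DEN 100 (adjusted p = 6.79e-05 and 0.000832), while Rpl11 lay near background, at 5.75 to 6.60 over all arrays, with no call. Rpl5 measured 7.74, 8.42 and 8.48 with DEN 100, against 7.16, 7.32 and 7.01 with PBS, above background throughout. Rpl22l1, the paralog that in mice is held down by Rpl22, measured 7.43, 7.74 and 8.58 with DEN 100, against 7.20 or less on each PBS array (0.80 ± 0.22; adjusted p = 0.00962), and its call was lost without DEN_113 (adjusted p = 0.0917). Its partner Rpl22 rose by 0.90 ± 0.16 in the same comparison (adjusted p = 0.000213). With erlotinib 2 over vehicle Rpl22 fell by 0.61 ± 0.16 (adjusted p = 0.0349), a call lost without vehicle array 24 or 69 or erlotinib 2 array 29 or 31 (adjusted p = 0.0682 to 0.19), and Rpl22l1 changed by -0.59 ± 0.22 (adjusted p = 0.156). Rpl7l1, a factor of large-subunit maturation that resembles Rpl7, rose by 0.56 ± 0.12 with DEN 100, and Rpl7 by 0.77 ± 0.14 (adjusted p = 0.00133 and 0.000327). The DEN 100 calls of Rpl22, Rpl7 and Rpl7l1 did not hold under all 6 scalings.

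Several members serve as reference genes in RT-qPCR. Rplp0, Rps18, Rpl13a and Rpl32 rose with DEN 100 by 0.86 ± 0.11, 1.15 ± 0.17, 1.03 ± 0.20 and 1.17 ± 0.11, and with vehicle over PBS by 0.98 ± 0.11, 1.19 ± 0.17, 1.11 ± 0.20 and 1.12 ± 0.11 (limma adjusted p between 3.16e-08 and 0.000408). Rpl13a measured 11.34, 11.05 and 12.16 with DEN 100, against 10.54, 10.34 and 10.57 with PBS, and 11.89, 11.19 and 11.42 with vehicle, against 10.30, 10.43 and 10.43 with PBS at week 18. Under bright-probe scaling Rpl32, Rps18 and Rpl13a were called with DEN 100 and Rplp0 was not (adjusted p = 0.0628), while with vehicle over PBS Rpl13a was called and Rplp0, Rps18 and Rpl32 were not (adjusted p = 0.229, 0.0996 and 0.102).

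Members were also described by whether the start window holds a pyrimidine run. Among the 54 members with a promoter in the table, the median change with DEN 100 over PBS was 1.002 for the 32 with a run, of which 26 rose and 2 fell, and 0.83 for the 22 without, of which 16 rose. Of all features 11.5% rose and 9.81% fell with DEN 100 over PBS. For DEN 100 over DEN 50 the medians were 0.64 with a run, where 24 members rose and 1 fell, and 0.32 without, where 8 rose, against 5.07% of all features up and 4.31% down. By median scaling 1 member in all was called in that comparison, where 676 of 19339 features were. With DEN 50 over PBS the medians were 0.34 and 0.47, with vehicle over PBS 0.86 and 0.79, and with erlotinib 2 over vehicle -0.46 and -0.36. Rps3 and Rpsa, whose windows are shown above, were among the members that rose most and hold no run in the window. Rps24 holds a run of 17 bases and fell. With the starts unchecked, the split does not sort members by a TOP tract. This split was made after the values were seen and no test was run on it.

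Other lists of the pathway had smaller median changes with DEN 100 than the members. Their counts stand against 11.5% of all features up and 9.81% down with DEN 100, 9.51% and 8.73% with vehicle over PBS, and 1.92% and 2.11% with erlotinib 2. Of 16 measured mRNAs with a TOP tract that do not encode ribosomal proteins, 9 rose and none fell with DEN 100 (median 0.51), 9 rose with vehicle over PBS (0.41), and 2 fell with erlotinib 2 (-0.24). Rack1, a scaffold on the small subunit, rose by 1.18 ± 0.14 with DEN 100 (limma adjusted p = 1.13e-06) and changed by -0.46 ± 0.14 with erlotinib 2 (adjusted p = 0.0697). Eef1b2, an exchange factor of elongation, rose by 0.74 ± 0.16 with DEN 100, and Vim, the filament protein of mesenchymal cells that is also in the stellate list, by 2.58 ± 0.21. Vim and Nap1l1 were the 2 that fell with erlotinib 2, by 1.55 ± 0.21 and 0.68 ± 0.18 on the log2 scale. Of 41 genes of ribosome biogenesis and RNA polymerase I, 15 rose and 3 fell with DEN 100 (median 0.20), 10 rose and 1 fell with vehicle over PBS (0.15), and 2 fell with erlotinib 2 (-0.02). Nhp2 and Nop58, core proteins of the particles that modify ribosomal RNA, rose by 1.68 ± 0.19 and 1.37 ± 0.15 with DEN 100, Polr1d, a subunit of RNA polymerases I and III, rose by 1.23 ± 0.13, and nucleolin (Ncl) fell by 0.58 ± 0.14. Nop58 and Polr1d fell with erlotinib 2, by 0.63 ± 0.15 and 0.64 ± 0.13.

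The next lists stand against shares of all features of 11.5% up and 9.81% down with DEN 100 and 9.51% and 8.73% with vehicle over PBS. Rises in the mTORC1 and mitochondrial lists lie closer to these shares than rises among the initiation and elongation factors. Of 27 initiation and elongation factors, 7 rose and 2 fell with DEN 100 (median 0.17), 6 rose and 1 fell with vehicle over PBS, and 2 fell with erlotinib 2. Of 24 genes of the mTORC1 axis and the kinases of Rps6, 4 rose and 2 fell with DEN 100 (median 0.15), and 4 rose and 1 fell with vehicle over PBS. None of the 24 was called with erlotinib 2 in limma, where 1.92% of all features rose and 2.11% fell. In that group 5 of the 24 stood near background. Eif4ebp1, the mTORC1 substrate that represses cap-dependent initiation, rose by 1.02 ± 0.14 with DEN 100, and Mtor itself fell by 0.70 ± 0.12 on the log2 scale (adjusted p = 9.36e-06 and 0.000128). Of 59 proteins of the mitochondrial ribosome, 12 rose and 3 fell with DEN 100 (median 0.08), 4 rose and 6 fell with vehicle over PBS (-0.07), and 1 rose with erlotinib 2 (0.03), where the cytosolic members had medians of 0.97, 0.79 and -0.43.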

How the data were processed

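The authors deposited raw intensity values (bead signals, linear scale) and a normalized intensity table, with scanner software and normalization not given in the sources used here. Starting from the raw table, background was corrected with limma 3.58.1 in R 4.3.3 (normexp, offset 50), then log2 was taken and arrays were quantile normalized. The filter kept probes that passed the 40th percentile on 3 or more arrays, which left 19339 features. The brightest probe stood for a gene, and among the members Rps9 alone had more than 1. Raw array medians ran from 105 to 186.9, and the number of arrays limits the precision. Group means over 21 arrays in 7 groups (14 residual degrees of freedom) were compared with limma's moderated test, called at a Benjamini-Hochberg adjusted p under 0.05. The members and lists, the named genes (largest changes per comparison, and members and list genes with set roles) and the comparisons were chosen with earlier results of these data known. Alternatives were the scalings above, no filter, a stricter filter (60th percentile, 6 arrays), array weights, a robust and trended spread, the compared arrays alone, the mean of the probes and leaving out each array. Ranks, raw shares and the split by pyrimidine run were added after the data were seen. The fit was tested on simulated data with independent noise per feature and no scaling step. That simulation cannot speak to shifts shared by a gene family or to the choice of scaling. Sequences are RefSeq's (GRCr8), with 64 members matched by gene ID. Probes may also bind transcripts of pseudogenes, which was not tested. The files give no slide or scan. Plots used matplotlib 3.10.9 and Python 3.11.15.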

Additional observations from a re-analysis of the deposited data

How the results depend on the processing

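No paired analysis was possible because the numbers in the labels were read as those of rats and no number is shared between groups. Counts of members called moved by over 1.5 times in these settings. For DEN 50 over PBS the count of 25 became 1 by bright-probe scaling and 4 by cyclic loess. Over all features 2108 became 1312 and 1951. For DEN 100 over PBS the count of 54 became 33 by bright-probe scaling, where over all features 4114 became 2409. For DEN 100 over DEN 50 the count of 40 became 1 by median scaling, 5 by bright-probe scaling and 10 with the compared arrays alone, and ranged from 22 to 45 as each array was left out. Over all features 1814 became 676 by median scaling and 945 by bright-probe scaling. For vehicle over PBS the count of 53 became 11 by bright-probe scaling, where over all features 3528 became 1944. For erlotinib 2 over vehicle the count of 23 became 0 by median and by bright-probe scaling, 4 by cyclic loess and 14 with the compared arrays alone, and ranged from 8 to 33 as each array was left out. Over all features 780 became 125 by median scaling, 337 by bright-probe scaling and 755 by cyclic loess. For erlotinib 0.5 over vehicle and for erlotinib 2 over erlotinib 0.5 the count of 0 became 1 with array weights. For DEN 50 over time the count of 1 became 3 without background correction, 2 with the stricter filter, 4 with array weights, and 0 in the deposited table, by median scaling, bright-probe scaling and cyclic loess, with the trended spread and with the compared arrays alone, and it ranged from 0 to 8 as each array was left out. For the interaction it ranged from 0 to 1. The cause of these moves was not tested. A fit on the compared arrays alone has fewer arrays and also its own estimate of spread, and these were not separated. The other ranges as each array was left out were 19 to 33 for DEN 50, 53 to 54 for DEN 100 and 48 to 55 for vehicle over PBS. No called change of a named member changed sign. Signal near background limits the 6 members with a group mean at or below that limit, and whether the top of the scale limits Rplp0, Rpl41 and Rpl23a was not tested.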

Other observations

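Reference genes of RT-qPCR that are not ribosomal were split. Of 11 measured, 5 rose and 1 fell with DEN 100 over PBS, 4 rose and 1 fell with vehicle over PBS, and 2 fell with erlotinib 2 over vehicle. Of all features 11.5% rose and 9.81% fell with DEN 100, 9.51% and 8.73% with vehicle over PBS, and 1.92% and 2.11% with erlotinib 2. Hprt1, an enzyme of purine salvage, rose by 0.99 ± 0.15 with DEN 100 (SE, n = 3 each; limma adjusted p = 2.08e-05), and Ywhaz, a 14-3-3 protein, by 0.89 ± 0.14 (adjusted p = 4.13e-05). Both fell with erlotinib 2, by 0.70 ± 0.15 and 0.61 ± 0.14 on the log2 scale (adjusted p = 0.00715 and 0.0132). Sdha, a subunit of succinate dehydrogenase, fell by 1.03 ± 0.17 with DEN 100 and by 0.66 ± 0.17 with vehicle over PBS. Tbp, the TATA-binding protein, and B2m, the light chain of MHC class I, changed by 0.10 ± 0.12 and -0.02 ± 0.12 with DEN 100 and missed the threshold (adjusted p = 0.647 and 0.943).

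Among proteins of the mitochondrial ribosome, Mrpl17 and Mrpl13 stood out with DEN 100 over PBS. Mrpl17 rose by 2.63 ± 0.45 and Mrpl13 by 2.24 ± 0.27 (limma adjusted p = 0.000131 and 1.13e-06), while the median of the 59 genes was 0.08. Mrpl13 also rose with vehicle over PBS, by 1.38 ± 0.27 (adjusted p = 0.000572).

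Of the remaining marker lists, with DEN 100 over PBS 2 of 10 lymphocyte markers rose and 1 fell, 2 of 3 endothelial markers rose, 1 of 5 neutrophil markers rose and 0 of 3 red blood cell markers were called. Of all features 11.5% rose and 9.81% fell, so the lymphocyte counts lie near those shares. At background stood 5 of 10 lymphocyte markers in PBS livers of week 12 and 5 with DEN 100. Of 5 neutrophil markers 4 did so in those PBS livers and 3 with DEN 100. With erlotinib 2 over vehicle 1 lymphocyte marker fell, 1 of 6 macrophage markers rose and no endothelial, neutrophil or red blood cell marker was called in limma. Of all features 1.92% rose and 2.11% fell in that comparison. At background with erlotinib 2 stood 3 of 10 lymphocyte and 3 of 5 neutrophil markers.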
